A study of Bos taurus with 6 samples.

Results

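The regions described here are the 4099 summits of trimethylated histone H3 lysine 27 (H3K27me3) that lie on unplaced sequences of the bovine genome assembly UMD3.1, out of 45909 H3K27me3 summits in all. They were chosen as every H3K27me3 summit whose sequence is neither an autosome, the X chromosome nor the mitochondrial genome. Line A contributed 2170 of its 25225 summits and line B 1929 of its 20684. All of these sequences carry names of the form GJ059375.1, and the 4 lists of the series hold 0 mitochondrial summits. The groups are H3K27me3 in each of the lines A and B, and the lists of trimethylated lysine 4 (H3K4me3) from the same lines, with 1 library each. Both are independent lines of embryonic stem cells derived from bovine blastocysts, profiled at passage 12. They share their culture on mouse embryonic feeder cells with FGF2 and the WNT inhibitor IWR1, and feeder cells were removed with magnetic beads. The lists name no genes, so the labelled cell type was not checked against markers here, and the input libraries were not analysed here.

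H3K27me3 is written by Polycomb repressive complex 2 and read by Polycomb repressive complex 1. In pluripotent cells it is best known from the silent promoters of developmental genes, where it often lies beside H3K4me3, the mark of active and poised promoters. Unplaced sequences are pieces of an assembly that could not be ordered onto a chromosome. They are usually short and often hold sequence that occurs in several copies in the genome. The bases, lengths, genes and repeats of the sequences described here were not analysed here, so none of their sequence is printed.

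A summit is the single base at which a called peak was highest. Its score is a −log10 significance value, of p or of q. The depth of the libraries is unknown, so each score was also ranked within its own list, where the 100th percentile is the highest. With 1 library per mark and line, n = 2 lines, and an exact sign-flip permutation test cannot fall below p = 0.5 (two-sided). Every difference between parts of the genome below is therefore a description of both lines. Distances between the lines come from 1 comparison of line A with line B, seen from each side. Their values for the lines are therefore not 2 independent observations. Intervals are 95% Wilson intervals and cover counting error only. Where values stand side by side without a label, line A comes first.

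Most of the marked sequences held a single summit. The summits of line A lay on 1272 sequences and those of line B on 1259, a mean of 1.71 and 1.53 per sequence, or 1.62 ± 0.123 (SD, n = 2). In line A 793 sequences (62.3%) had 1 summit, 283 had 2 and 85 had 3. For line B these numbers were 874 (69.4%), 227 and 86. At the other end, 61 sequences of line A held 356 summits in sets of at least 5, and 34 sequences of line B held 191. Unplaced summits made up 8.60% of the list of line A (8.26% to 8.95%) and 9.33% of the other (8.94% to 9.73%).

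**Figure D1:**
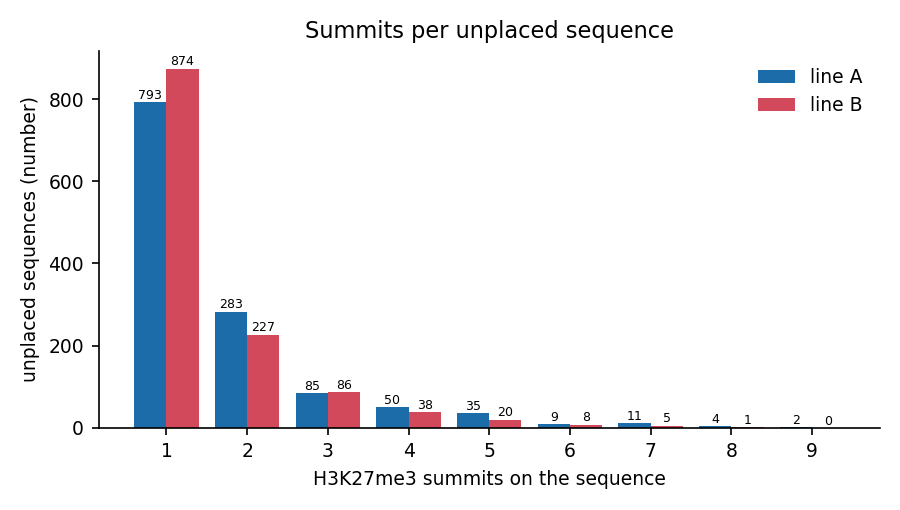
Number of unplaced sequences (y axis) by the number of H3K27me3 summits they hold (x axis), with 1 bar for each line and the count above it. Sequences with 1 summit are the most frequent class, 793 for line A and 874 for line B, and the highest number on 1 sequence is 9 and 8.

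The lines marked nearly the same set of sequences. Of 1326 sequences with H3K27me3 in either line, 1205 had it in both, which is 94.7% of the sequences marked in line A and 95.7% of those marked in line B. On 886 of the 1205 the number of summits was equal, and on 1156 it differed by at most 1. Line A had more summits on 247 and line B on 72. The number of summits per sequence was correlated between the lines across these 1205 sequences (Spearman rho = 0.765). They share the assembly, the peak caller and the length of each sequence. The number of unplaced sequences in the whole assembly was not available, and no like overlap was taken for placed stretches. Whether this overlap is unusual was therefore not tested.

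The 10 sequences with the most summits carried 13 to 16 over both lines, and several repeated the same series of positions. GJ059927.1 had 7 summits in line A at bases 635 to 9821 and 8 in line B at bases 523 to 11017, and 5 of the 7 had a summit of line B within 30 bases. GJ059663.1 had 8 and 7 summits between bases 212 and 7055, with 6 of the 8 within 30 bases. On GJ059915.1, the summits of line A at bases 651, 2242, 3493, 5202, 7499 and 9522 had those of line B at bases 662, 2248, 3506, 5196, 7493 and 9525 beside them. Its last summit in line A, at base 10206, had no match within 30 bases. GJ059940.1 (8 and 6 summits) and GJ059831.1 (8 and 5) had 5 and 4 summits of line A within 30 bases of line B. On each of these 5 sequences at least 4 summits lay within 30 bases between the lines, and on all 5 line A had further summits without such a match.

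The other sequences of the 10 matched less often. GJ059912.1, with the most summits, had 9 in line A from base 725 to base 10723 and 7 in line B from base 743 to base 9416, with 3 matches within 30 bases. Its scores ran from 6.64 to 108 in the former and from 6.67 to 108 in the latter. GJ059982.1 had 9 and 5 summits with 3 matches, and held the highest scores of the 10, up to 218 and 203. GJ059957.1 had 7 in each line with 1 match. GJ059821.1 and GJ059959.1 reached furthest, to bases 24639 and 28909. Each had 7 summits in each line with 0 matches within 30 bases, and their highest scores were 13.0 and 21.5 in line A and 15.6 and 15.4 in line B. The 2 sequences that reached furthest thus had the lowest maxima of the 10 and no close match.

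**Figure D2:**
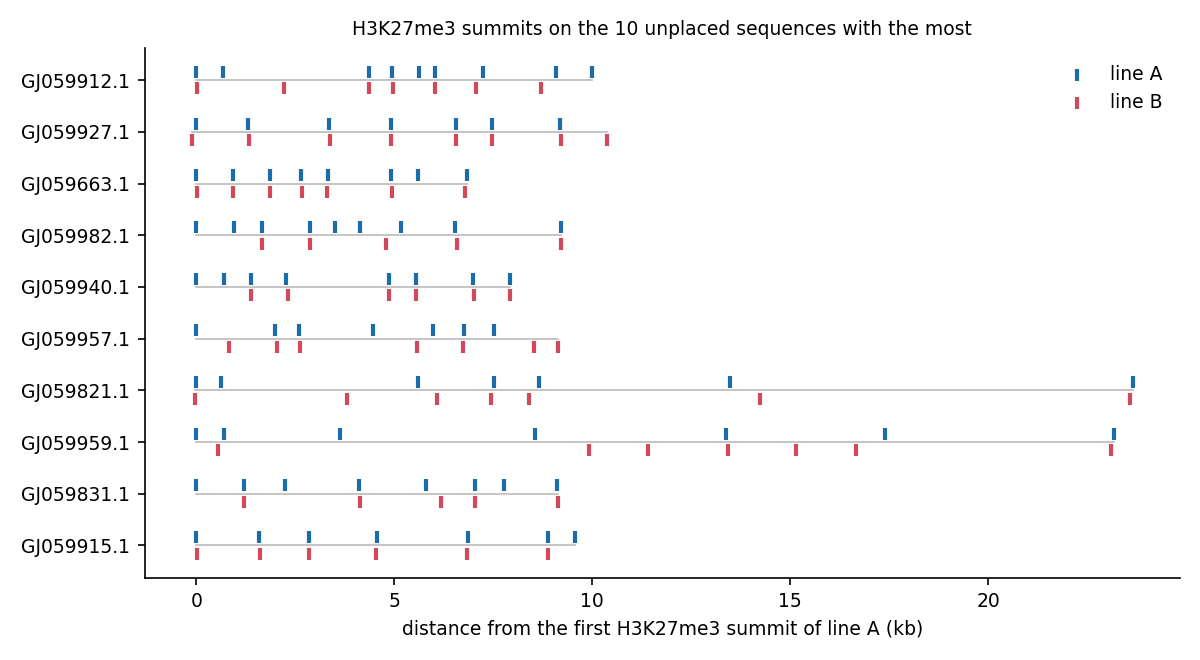
Positions of H3K27me3 summits on the 10 unplaced sequences with the most, as the distance in kb from the first summit of line A (x axis), 1 row per sequence, with line A as blue ticks above the grey line and line B as red ticks below it. On GJ059927.1, GJ059663.1, GJ059940.1 and GJ059915.1 most ticks of line A have a red tick within 30 bases, while on GJ059821.1 and GJ059959.1 no summits match that closely.

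Summits of the lines lay close together. Of the 2170 unplaced summits of line A, 1952 (90.0%, interval 88.6% to 91.1%) had a summit of line B within 1000 bases, against 66.5% over the whole list of line A. Of the 1929 in line B, 1786 (92.6%, 91.3% to 93.7%) had a summit of line A, against 76.3% over its whole list. The autosomes alone had 66.0% and 83.6%, so the unplaced share was higher by 24.0 percentage points in line A and by 9.0 in line B. With only summits above the median score of each list kept, these differences were 14.1 and 2.38 points, and at a distance of 5000 bases they were 14.9 and 2.51. Within 30 bases there were 1104 summits in each line, 50.9% of those in line A (48.8% to 53.0%) and 57.2% of the other set (55.0% to 59.4%), where the whole lists had 25.0% and 30.4%. At exactly the same base lay 75 summits of each line. Neither line was shifted against the other: among matches within 1000 bases of a summit of line A, 959 lay at a higher base in line B and 918 at a lower.

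Unplaced summits stood between the kinds of placed regions. On autosomes 152 blocks were set apart in which at least 5 summits of each line were chained at gaps of up to 5 kb and lay a median of at most 30 bases apart, so that closeness is part of how these position-locked blocks were chosen. In them 71.0% and 80.8% of summits had a match within 30 bases. Outside them the autosomes had 12.3% and 17.6%, and the X had 11.3% and 10.8%. Taking the blocks out lowers the autosomal share by construction. All autosomes had 25.9% and 35.0%, and the unplaced share exceeded these by 25.0 and 22.2 percentage points. The unplaced share exceeded that of the autosomes outside the blocks by 38.6 percentage points in line A and by 39.7 in line B, and that of the X by 39.5 and 46.5 (exact permutation p = 0.5 for each). Matches within 30 bases are the same pairs counted from each line: 1104 unplaced, 1663 on autosomes outside the blocks and 611 on the X. The shares of the lines therefore differ only through the number of summits in each list. The median distance to the other line was 26 and 19 bases for unplaced summits. It was 11 and 8 bases in the blocks, 634 and 224 on the autosomes outside them, and 552 and 729 on the X. On all autosomes it was 323 and 100.

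**Figure D3:**
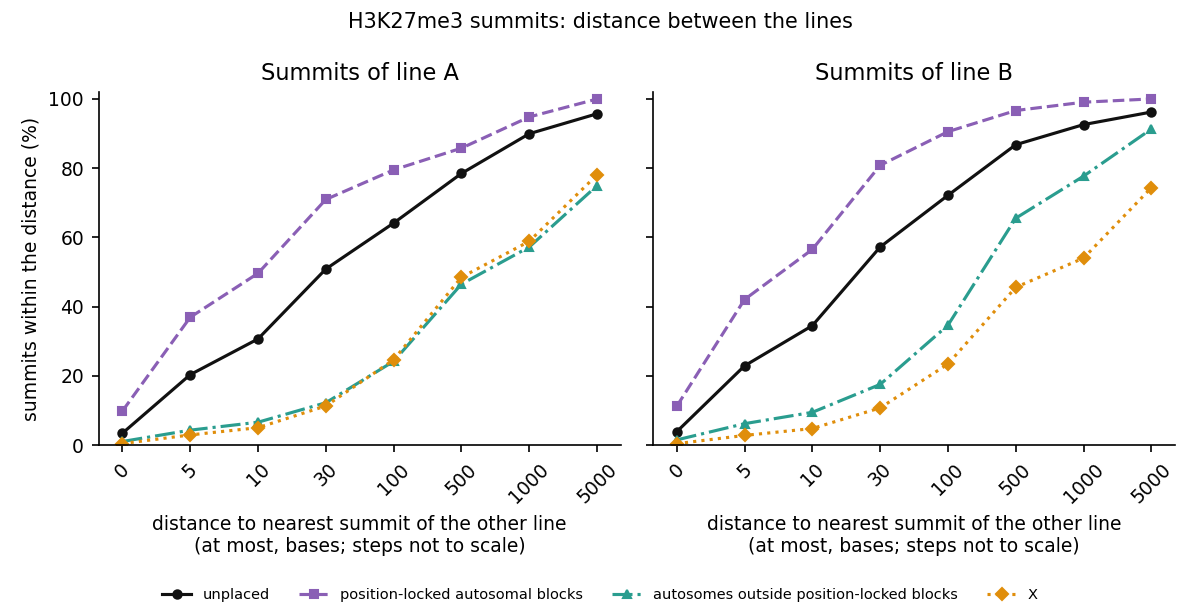
Percent of H3K27me3 summits (y axis) matched in the other line within the distance on the x axis, in bases at unequal steps, for summits of line A (left) and line B (right) in 4 parts of the genome. The black line of unplaced summits runs below the position-locked autosomal blocks and above the other autosomes and the X at every distance drawn, for example 50.9% and 57.2% at 30 bases.

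The length of a sequence limits how far apart summits can lie. Lengths were not used here, but the last summit of any list gives a lower limit. On 640 of the 1326 sequences the last summit lay below base 1000, where any match is within 1000 bases by construction, and 63.6% and 68.0% of the summits there matched within 30 bases. On the 95 sequences with a last summit from base 5000 to below base 10000, the share within 30 bases was 45.8% of 382 summits and 55.2% of 317. On the 35 sequences reaching base 10000 or beyond it was 25.5% of 137 and 32.7% of 107, with median scores of 7.91 and 10.1. On the 35 that reached furthest the share was near the 25.9% and 35.0% of all autosomes. These classes are set by the called summits themselves, and they differed in score as well. The median percentile was 78.7 and 77.0 where the last summit lay below base 1000, and 45.5 and 51.8 on the 35 sequences. Reach and score were not separated, and the part of length was not tested.

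On 697 sequences each line had exactly 1 summit. There the summits lay a median of 14 bases apart, with quartiles at 4 and 56 bases, and 42 were at the same base. On 303 of them (43.5%) the distance was at most 10 bases and on 452 (64.8%) at most 30, while on 38 it was over 500. The 452 with close summits had a median score of 69.6 for line A and 61.0 for line B, and the 140 with summits over 100 bases apart had 23.4 and 22.4. The higher base was that of line A on 321 and that of line B on 334. Summits further apart were thus the weaker ones, and the direction of the shift was nearly even.

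Unplaced summits scored higher than most of their lists. Their median score was 26.4 for line A, with quartiles of 12.0 and 62.9, and 29.5 for line B, with quartiles of 12.5 and 66.9. All H3K27me3 summits had a median of 9.31 and 9.49. The median unplaced summit stood at the 72.0th and 73.5th percentile of its list. Autosomes stood at the 55.6th and 58.7th, the X at the 28.6th and 26.7th, and the position-locked blocks at the 87.4th and 87.4th. The difference from the autosomes was 15.6 ± 1.20 percentile points (SD, n = 2, exact permutation p = 0.5). With only the upper 50% of each list by score kept and ranked again, it was -0.92 points. In line A 5.62% of unplaced summits lay up to the 20th percentile and 41.9% between the 60th and 80th, where the autosomes had 17.0% and 21.1%. Of the highest 1% of each list, which is 1.00% by construction, 32 summits were unplaced, 1.47% and 1.66% of the unplaced summits of the lines. Autosomes had 1.24% and 1.31% of their summits there, the position-locked blocks 3.38% and 3.49%, and the X 0.0371% and 0.0529%. The 90th percentile of the scores was 150 and 147 for unplaced summits, below the 199 and 217 of autosomes.

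Matching rose with the score. In the lowest 10% of the unplaced scores of line A, up to 5.81, 65.9% had a match within 1000 bases and 12.4% within 30. In the highest 10%, from 151, these shares were 98.6% and 84.8%. The lowest 10% of line B had 66.3% and 17.1%, and the highest 100% and 86.5%. At like ranks of score the close match was more frequent than on autosomes, except at the top of line B. Between the 40th and 60th percentile of the list of line A, 31.9% of the unplaced and 10.6% of the autosomal summits matched within 30 bases, and between the 60th and 80th 50.7% and 23.5%. In line B it was 33.6% against 13.8%, and 61.0% against 35.3%. Above the 80th percentile it was 77.7% against 73.7% for line A, and 78.9% against 82.4% for line B.

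Sequences that scored high in 1 line also scored high in the other. Across the 1205 sequences marked in both, the highest scores per sequence had a Pearson r of 0.903 on the log10 of the score and a Spearman rho of 0.883. This describes sequences that share the assembly and the peak caller. Summits alone on their sequence had higher scores (medians 40.3 and 39.2) than summits in sets of at least 5 (20.8 and 16.3).

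**Figure D4:**
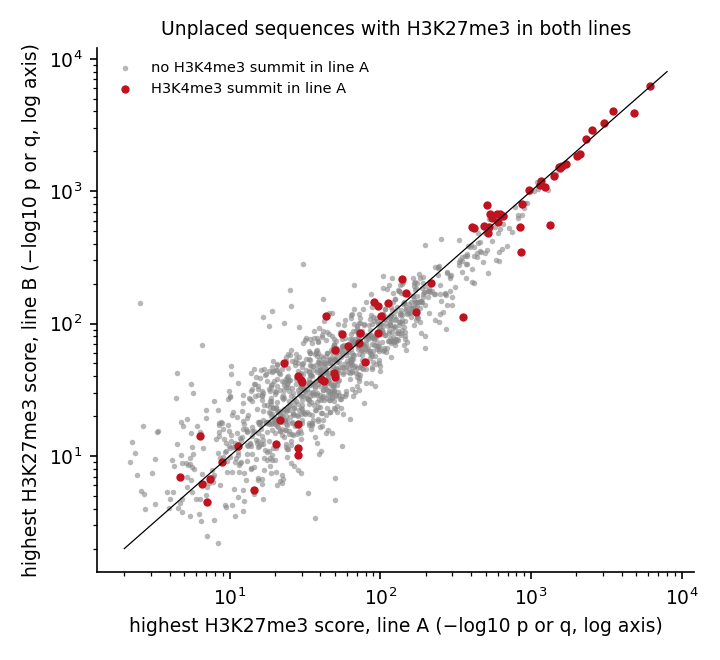
Highest H3K27me3 score of each of 1205 unplaced sequences in line A (x axis) and line B (y axis), both as −log10 of p or q on log axes, with the line of equality; red points are sequences with an H3K4me3 summit in line A. The scores rise together over the whole range (Spearman rho 0.883), up to 6171 and 6273.

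The highest scores belonged to sequences with 1 summit in each line. GJ059375.1 scored 6171 in line A at base 400 and 6273 in line B at base 406. GJ059734.1 scored 4838 at base 1700 and 3862 at base 1706. GJ059211.1 scored 3482 and 4017, both at base 507. The lines placed these summits within 6 bases of each other, as they did on GJ059259.1 (3063 at base 512 and 3286 at base 513) and GJ059299.1 (2622 at base 933 and 2811 at base 928). The highest 1% began at scores of 888 (line A) and 782 (line B). Of the 32 unplaced summits above it, 30 were matched within 30 bases, and 30 were in the highest 1% of both. The exceptions in distance were GJ058920.1, at bases 943 and 598, and GJ059301.1, at bases 663 and 1077, named after their values were seen.

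Many of these sequences are neighbours by name, a pattern picked out after the values were seen. Of the 32 unplaced summits in the highest 1%, 21 of line A and 20 of line B lay on sequences named GJ059211.1 to GJ059305.1. The wider range GJ059200 to GJ059399 held 22 and 21 of the 32, on 112 of the 1326 sequences with H3K27me3. It held 133 of all 2170 unplaced summits of line A and 129 of the 1929 of line B. All 14 names from GJ059251.1 to GJ059264.1 and all 17 from GJ059289.1 to GJ059305.1 carried exactly 1 H3K27me3 summit in each line. Scores in the former run had a median of 995 for line A (64.3 to 3063) and 917 for line B (115 to 3286). In the latter they were 1140 (408 to 2622) and 1079 (533 to 2811). In the former run all 14 sequences had the summits of the lines within 30 bases, at a median of 3 bases. In the latter 15 of 17 did, at a median of 1 base, with 8 at the same base. Close matching was not particular to these neighbours. The highest 10% of unplaced scores had a median distance of 5 bases in both lines. The 32 unplaced summits in the highest 1%, many of them from these runs, had 2.5.

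**Figure D5:**
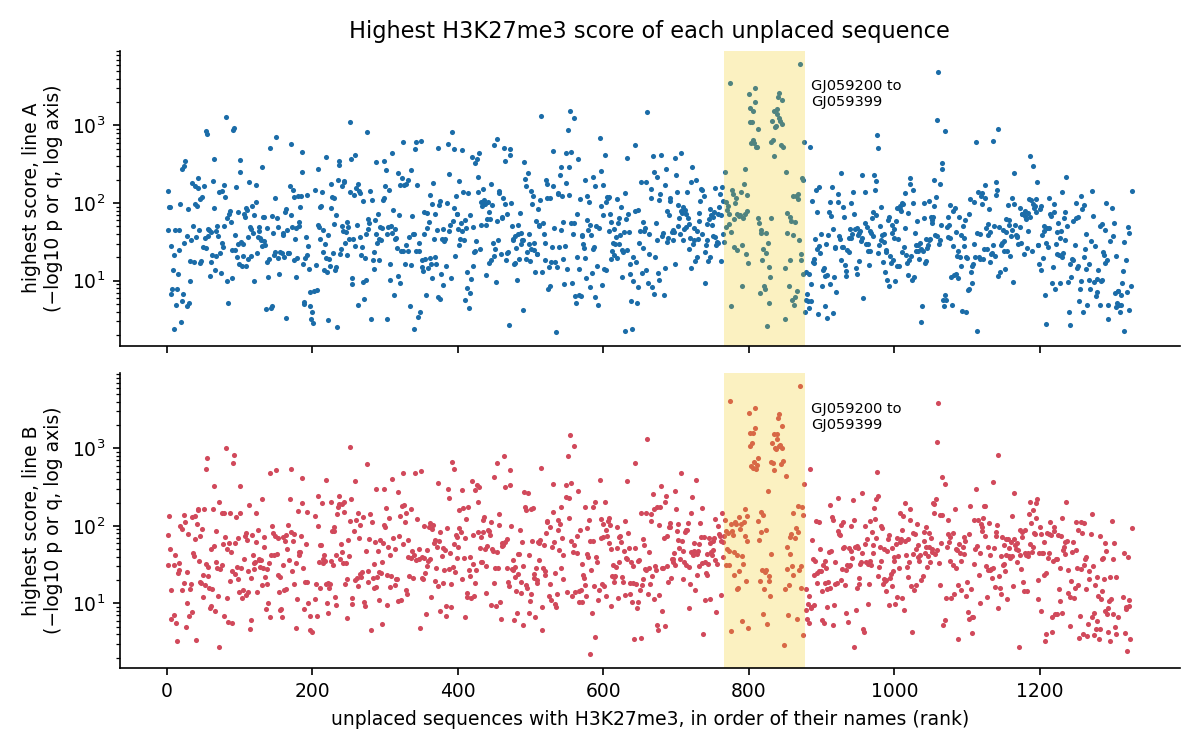
Highest H3K27me3 score of each unplaced sequence in line A (upper) and line B (lower), as −log10 of p or q on a log axis, with the 1326 sequences in order of their names. The names GJ059200 to GJ059399 hold 22 and 21 of the 32 unplaced summits in the highest 1% of each list, among them the highest scores, 6171 and 6273. They hold 133 of all 2170 unplaced summits of line A and 129 of the 1929 of line B.

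Other ranges of names differed in the number of summits. The 730 sequences named GJ058200 to GJ059199 had 1.24 and 1.13 summits per marked sequence, at a median position of base 647 and 648. The 363 named GJ059400 to GJ059999 had 2.84 and 2.49, at a median position of base 2432 and 2396. Median scores were 36.8 and 37.4 in the former range, and 21.0 and 24.4 in the latter. The 86 sequences with names from GJ060000 were the weakest of the 5 ranges, with medians of 10.3 and 11.5, and 32.5% and 36.5% of their summits matched within 30 bases.

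The summits lay at low base numbers. Their median position was base 1049.5 in line A and base 1006 in line B, and 56 and 38 summits lay beyond base 10000. The lowest was base 111 in the former and base 122 in the latter, so 0 summits lay below base 100. Summits alone on their sequence had a median position of base 686 and 687. Where a sequence had several, the first lay at a median of base 515 and 582, and the last 1420 and 1796 bases after it.

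Neighbouring summits on the same sequence were closely spaced. The median gap was 1051.5 bases over 898 gaps of line A, with quartiles of 733.5 and 1654.5, and 1337 bases over 670 gaps of line B, with quartiles of 873 and 1904.75. In the position-locked blocks the median gap was 1212 and 1368 bases, and on all autosomes 2540 and 2700. The blocks were chained at gaps of up to 5 kb, so short gaps are part of how they were chosen. Gaps from block to block were also counted. The difference from the blocks was -160.5 and -31 bases. A gap cannot exceed the length of its sequence, a limit that hardly bears on chromosomes.

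Sequences marked in 1 line alone were few, and most of them weakly marked. Line A had 67 such sequences with 84 summits, of which 55 sequences had 1 summit, and their median score was 6.44, against 27.9 on the sequences marked in both lines. Line B had 54 with 69 summits, 43 of them with 1 summit, at 7.17 against 30.8. The most summits were on GJ058430.1, with 5 in line A between bases 1705 and 166512 at scores of 3.94 to 14.0, and on GJ059862.1, with 4 in line B between bases 1178 and 4447 at scores of 9.27 to 13.1. GJ060009.1 and GJ060119.1 had 3 in line A alone, with highest scores of 18.4 and 7.40. GJ059993.1 and GJ059946.1 had 3 in line B alone, with 13.6 and 6.61. The highest score on any sequence of 1 line alone was 614 for line A and 33.9 for line B.

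H3K4me3 was rare beside the unplaced H3K27me3 summits. An H3K4me3 summit of the same line lay within 1000 bases of 84 of the 2170 of line A (3.87%, 3.14% to 4.77%), against 24.7% over the whole list. For line B it was 21 of the 1929 (1.09%, 0.713% to 1.66%), against 24.5%. With only summits above the median score of each list kept, for both marks, the shares were 0.397% and 0.316%. The position-locked blocks had 11.5% and 4.74%, and the X 12.5% and 10.6%. The difference from the autosomes was -27.2 percentage points for line A and -33.0 for line B (exact permutation p = 0.5). The H3K4me3 lists held 101 unplaced summits of line A on 89 sequences, and 46 of line B on 37. Both marks were present on 74 of the 1272 sequences with H3K27me3 in line A (5.82%) and on 22 of the 1259 of line B (1.75%).

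Within 30 bases of unplaced H3K27me3 summits, line A had mostly weak H3K4me3 summits, and line B lacked most of them. Of the 101 of line A, 47 had an H3K27me3 summit of that line at most 30 bases away (46.5%, against 4.29% of the whole H3K4me3 list). Those H3K27me3 summits had a median score of 491 (6.54 to 6171). The 47 H3K4me3 summits had a median of 7.54 (2.02 to 365), below the 36.6 of their whole list. Of the 47, 8 had an H3K4me3 summit of line B within 1000 bases, against 93.3% of the whole list. In line B 7 of 46 lay within 30 bases of H3K27me3 (15.2%, against 2.77% of its list), 6 of them with an H3K4me3 summit of line A within 1000 bases, against 88.6%. Among the highest 10% of unplaced H3K27me3 scores, 35 of 217 summits of line A had H3K4me3 within 1000 bases, and each lower 10% had 2 to 8. For line B it was 8 of 193, and 0 to 3. With 1 library per line and mark, whether the lines differ was not tested.

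The runs of neighbouring names hold many of these summits. From GJ059251.1 to GJ059264.1, 7 of 14 sequences had H3K4me3 in line A, with scores of 2.17 to 38.9, and 0 had it in line B. From GJ059289.1 to GJ059305.1, 13 of 17 had it in line A, with scores of 4.35 to 35.5, and 1 had it in line B. On GJ059259.1 the H3K4me3 summit of line A lay at base 512, the base of its H3K27me3 summit. On GJ059375.1 it lay at base 421 with a score of 107, and on GJ059211.1 at base 500 with a score of 37.8. Line B had no H3K4me3 summit on these 3 sequences, and neither line had any on GJ059299.1. GJ059734.1 had H3K4me3 at base 1700 in both lines, with scores of 365 and 67.4, and a further summit of line A at base 187 with 195. GJ059296.1 had both marks of both lines at bases 757 to 762, with H3K27me3 scores of 1419 and 1313 and H3K4me3 scores of 35.5 and 9.35.

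On 3 of the sequences with the most H3K4me3, H3K27me3 scored at most 28.4, and the marks lay at widely differing distances. Of the 33 sequences with H3K4me3 in both lines, 19 had H3K27me3 in both. On GJ060129.1 the strongest H3K4me3 summits, at bases 2012 and 1967 with scores of 80.7 and 112, lay 6833 and 14288 bases from the nearest H3K27me3 summit of their line, although weaker ones lay 255 and 66 bases from it. H3K27me3 scored at most 7.45 and 6.73 there. On GJ058425.1 the H3K4me3 summits at bases 33125 and 33158 scored 124 and 185 and lay 399 and 20296 bases from H3K27me3, which scored at most 28.4 and 10.2. Those at bases 57415 and 57512 of the same sequence scored 46.8 and 101 and lay 442 and 762 bases from it. On GJ059486.1 the H3K4me3 summits at bases 11542 and 11759 scored 7.09 and 24.9 and lay 125 and 45611 bases from H3K27me3, which scored at most 8.94 and 8.95. H3K4me3 summits with a match in the other line had a median score of 31.4 over 40 summits of line A, and 49.1 over 39 of line B. The 61 of line A without a match had a median of 6.40, and 39 of them lay within 30 bases of H3K27me3.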

How the data were processed

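The data are 4 lists of peak summits from ChIP-seq of H3K27me3 and H3K4me3 in 2 lines of bovine embryonic stem cells, grouped by the labels, with 1 library per mark and line. BWA, MACS2 and the assembly UMD3.1 are named in the submitters' processing notes, with no version for BWA and MACS2. Use of the inputs, filters and the calling mode are not given in the sources used here. Scores deposited by the authors were taken to be −log10 significance values, since the smallest in every list is just above 2, and whether of p or q is not given. The deposited positions (other values) are summits of 1 base, printed here counted from 1. The lists hold no read counts, so depth is unknown.

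Distances were taken to the nearest summit on the same sequence, and percentiles within each whole list. Named sequences are the 10 with the most H3K27me3 summits over both lines, the 5 highest by the lower of the lines' highest scores, the 5 with the most H3K4me3 among those with both marks in both lines, and the 3 with the most summits in each line alone. Other names were picked after their values were seen. The members, rules and limits were chosen with earlier results of these data known. Only the distance and merging steps were tested on simulated lists, in which summits were spaced wider than most gaps between unplaced summits. Alternatives covered distance, score, list length, merging, the most marked sequences and each line alone. A gene table of another assembly was not used. The scripts ran under Python 3.11.15 with pandas 2.3.3, numpy 2.4.6, matplotlib 3.10.9 and scipy 1.17.1.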

Additional observations from a re-analysis of the deposited data

Results flagged for a closer look

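H3K4me3 summits on unplaced sequences with no H3K27me3 summit of the same line were not described on their own above. They are counted among all unplaced H3K4me3 summits and among those with or without a match in the other line. There is no control list to hold them against, and any such summit would have been listed here, so their number is a description. Line A had 16, on 15 sequences, and line B had 17, also on 15. Of these, 12 and 16 had an H3K4me3 summit of the other line within 1000 bases, which is 75% and 94.1%, against 93.3% and 88.6% of the whole H3K4me3 lists. Their median H3K4me3 scores were 19.0 and 44.0, and 11 sequences had H3K4me3 in both lines and H3K27me3 in neither. The strongest, picked out after their values were seen, were GJ058449.1, with a summit at base 749 in line A (score 108) and base 757 in line B (234), and GJ058435.1, at base 85988 (128) and base 86040 (188).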

How the results depend on the processing

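Of 76 alternatives over 10 results, 53 stayed within 1 SD between the lines (or 1.5 times a count), 22 moved further and 1 reversed. A line left out cannot move a mean past 1 SD, so those alternatives count among the 53 by construction. Leaving out names GJ059200 to GJ059399 was chosen after seeing the data. Values are means of the lines. Above the median score of each list, for both marks, the unplaced share was 14.7% (8.96% with all summits), the median percentile 52.4 (72.8), its difference from the autosomes -0.92 points (15.6), summits per sequence 1.48 (1.62), the distance 17 bases (22.5), the share with H3K4me3 0.357% (2.48%) and the position base 966.75 (1027.75). Fewer summits enter these by construction. Equal list lengths gave an unplaced share of 9.68%, a percentile of 70.4 and a difference of 13.7. Merging within 5 kb gave 12.1%, a percentile of 86.3, a difference of 31.2, 1.01 summits per sequence and 87.8% shared within 1000 bases (91.3%). Sharing was 68.2%, 82.6%, 94.9% and 96.0% at 100, 500, 2000 and 5000 bases. Mutual nearest pairs lay 17 bases apart. With at least 2 summits per line, 333 sequences were marked in both lines (1205). Without the 10 sequences with the most summits the position was base 991.75, and without names GJ059200 to GJ059399 the unplaced share was 8.44%. Differences between parts of the genome were taken within each line, and no replicate block was fitted, since each line has 1 library per mark. The unknown depth limits which weak summits could be called.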
